A study of Drosophila melanogaster with 4 samples.

Results

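The genes described here are 10 components of 2 signalling pathways of the fly ovary and were taken by name. The 6 EGFR genes were rho, Egfr, pnt, aos, kek1 and Cbl, and the 4 Notch genes were Dl, N, Su(H) and mam. They are 10 of the 17023 genes listed in each count table, and all 10 passed the filter on low counts, as did 7085 genes in all. The flies were Drosophila melanogaster labelled WT, with no age or further genotype given for these libraries, and RNA of their ovaries was counted. An antibody against pseudouridine, a modified form of uridine, was added to an ovary homogenate, and the RNA it held made the pulldown libraries (n = 2). The input libraries (n = 2) came from a portion of homogenate that met no antibody, and both kinds were enriched for poly(A) RNA. The libraries are numbered 1 and 3, and a pulldown was set beside the input of the same number. A mock pulldown with non-specific IgG was not analysed here, so a high pulldown value is a share of RNA held on the beads and not a measure of modified bases.

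EGFR signalling begins when Rhomboid, a protease inside the membrane, cuts a precursor of an EGF-like ligand. The receptor then acts through the Ras and MAP kinase cascade on transcription factors such as Pointed. Argos, Kekkon 1 and Cbl all limit the signal, and several of these inhibitors are made in response to it. In the ovary the oocyte sends the ligand Gurken to the follicle cells that surround it, which fixes the dorsal side of the egg chamber. In Notch signalling the ligand Delta, carried on one cell, binds Notch on its neighbour, and Notch is cut so that its inner part enters the nucleus. There it joins the DNA-binding protein Suppressor of Hairless and the coactivator Mastermind. Delta from the germline activates Notch in follicle cells at the switch from mitosis to endocycles.

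The libraries differed in depth, from 984979 counts in pulldown 1 to 12684875 in input 3, with 4245717 in input 1 and 6338436 in pulldown 3. Levels are given as CPM (counts scaled to the library total), with exact 95% binomial intervals in the plots, which cover counting error only. A level of 3 counts, taken as the floor, was 3.05 CPM in pulldown 1 and at most 0.707 CPM in the other libraries. Pulldown 1 stood apart, since 1203 of the 7085 tested genes (17.0%) were listed at 0 in it. The 10 follicle cell markers, mostly yolk and eggshell genes, summed to 61861 and 17037 CPM in inputs 1 and 3, and to 189164 and 26032 CPM in pulldowns 1 and 3. These higher pulldown sums do not hold for every follicle cell marker. Yp1, Vm26Aa, Vm26Ab and Vml had the higher pulldown value in both pairs. Fas3 had the lower one in both, going from 20.3 to 19.3 CPM (pair 1) and from 39.7 to 30.3 CPM (pair 3). Cp36 was lower in pulldown 1 only, and tj, slbo, Yp2 and Yp3 in pulldown 3 only. The 5 germline markers with counts summed to 3258 and 3260 CPM in the inputs and to 1471 and 2523 CPM in the pulldowns, with 1 of them at 0 in pulldown 1. The near-equal input sums hide opposite differences between the inputs. osk, nos and bam were higher in input 3, osk at 1040 CPM in input 1 and 1828 in input 3. otu and bcd were lower there, otu at 1825 and 880 CPM. Muscle markers had counts for 6 genes, summing to between 347 and 645 CPM, and the lists for neurons, gut, hemocytes and fat body stayed at or below 33.5 CPM. The part of cell composition in the results below was not tested, and in these bulk libraries fewer cells of a type and less RNA per cell cannot be told apart.

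In the inputs the 10 genes spanned a wide range of levels, which were compared per kilobase of exon. Cbl was the highest, with 33.9 CPM per kilobase in input 1 and 34.2 in input 3. Dl followed with 23.7 and 18.7, and mam with 11.0 and 9.90. The ranges of these 3 genes did not overlap. Su(H) had 10.4 and 8.31 CPM per kilobase, which overlapped mam. The receptor gene N had 4.90 and 10.7, and the inhibitor gene kek1 had 3.42 and 5.92. Both of these were higher in input 3. Egfr had 1.15 and 6.92 CPM per kilobase, aos 3.84 and 3.80, and pnt 1.46 and 4.47. From mam down to pnt, each gene's range overlapped that of its neighbour in the order of means. The lowest mean was that of rho, with 1.41 and 1.02 CPM per kilobase, and in input 1 Egfr lay below it. Cbl, Dl, Su(H), mam, aos and rho differed little between the inputs, with ratios of input 3 to input 1 from 0.725 (rho) to 1.01 (Cbl).

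**Figure D1:**
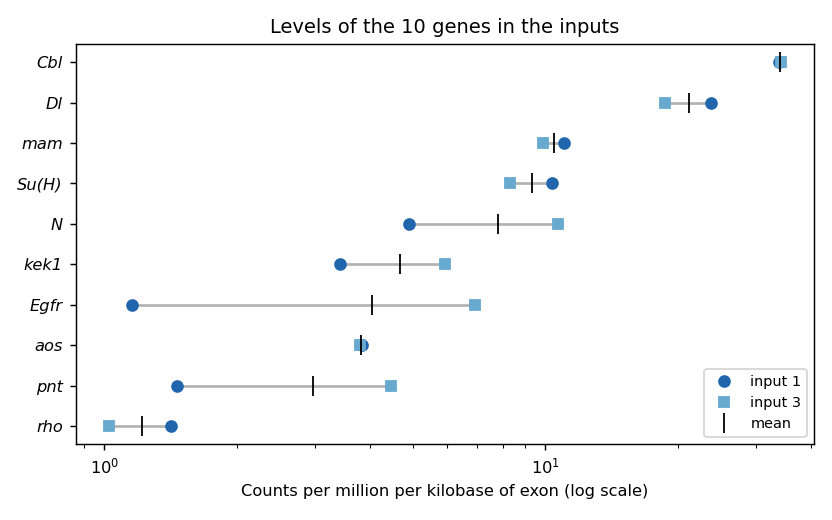
Input levels of the 10 genes in CPM per kilobase of exon, on a log axis. Circles are input 1, squares input 3 and vertical ticks their mean. Cbl lies highest at 34.1 on average and rho has the lowest mean at 1.22, while Egfr has the widest gap, 6.01-fold between the inputs.

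The gap between the inputs was widest for 3 genes. Egfr was 6.01-fold higher in input 3 than in input 1, pnt 3.06-fold and N 2.19-fold. Among 6985 tested genes with a count in both inputs, 32.6% were at least 2-fold higher in input 3 and 11.7% at least 4-fold. A difference of that size between inputs limits any comparison of these 3 genes with the pulldowns.

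The transcripts also differed in what they encode. The study's subject is the translation of mRNAs that carry runs of CAG, a codon for glutamine, so the longest run of glutamine codons (CAG or CAA) was found in the RefSeq coding sequence of each gene. The runs of N, Su(H) and pnt are shown because they are among the longest of the 10 and differ in how pure they are. CAG codons are in capitals and CAA codons in lower case, 5′ to 3′ on the coding strand of dm6.
N, chrX:3170448-3170498, plus strand: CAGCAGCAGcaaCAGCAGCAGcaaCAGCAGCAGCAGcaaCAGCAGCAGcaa
Su(H), chr2L:15040141-15040182, plus strand: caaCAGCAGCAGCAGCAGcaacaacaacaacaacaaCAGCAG
pnt, chr3R:23294164-23294181, minus strand: caacaaCAGCAGCAGCAG
The N run holds 17 glutamine codons, of which 13 are CAG, broken by single CAA codons. Su(H) holds 14, of which 7 are CAG, and a block of CAA codons separates its CAG codons. The pnt run is shorter, with 6 codons, and Cbl had a run of 4.

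The longest run of glutamine codons in mam was 17 codons. Its longest stretch of CAG codons alone was 8, which was found separately and not placed within that run. Glutamine codons made up 21.6% of its coding sequence. This share was 11.3% in Su(H) and 6.21% in N. Runs in aos, kek1 and Dl were 3 codons long, and Egfr and rho had no 2 glutamine codons in a row. Of the 6814 tested genes with a coding sequence, 1.19% had a run of at least 14 codons, as N, Su(H) and mam do. Among those 81 genes, 3 (3.70%) were at least 2-fold lower in the pulldown of both pairs, against 6.41% of all tested genes, and Su(H) and mam are 2 of these 3. N, with the same run length as mam, was not among them. Of the 673 tested genes with a run of at least 5 codons, which takes in pnt too, 62 (9.21%) were at least 2-fold lower in both pairs. The median log2 fold change, pulldown over input, was -0.33 at either run length and -0.07 over all tested genes. The 10 transcripts were also long, with a median of 5954 exon bases against 2186 for all tested genes, and 7 of them had at least 5000. Of the 1030 tested genes of at least 5000 exon bases, 93 (9.03%) were at least 2-fold lower in both pairs. Their median log2 fold change was -0.31. Uridine (T in the annotation) made up 19.7% to 24.8% of the exons of the 10 genes, against a median of 23.3% for all tested genes. No gene of the 10 shared exon bases with another annotated gene.

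To ask which of these mRNAs the antibody held, pulldown and input were compared gene by gene. Of the EGFR genes, rho was higher in both pulldowns, aos was slightly higher in both, and Cbl was lower. Egfr, pnt and kek1 were lower than the paired input in pulldown 1 and higher in pulldown 3, for kek1 within counting error. The 4 Notch genes all had lower estimates, and Dl, Su(H) and mam were at least 2-fold lower in both pairs. None of the 10 genes passed the test, nor did any of the 7085 tested genes, for which the smallest adjusted p was 0.9999 (edgeR quasi-likelihood test, two-sided, Benjamini-Hochberg, at an adjusted p of 0.05 and 2-fold). The percentage of tested genes called was 0 in both directions, 146 genes had an unadjusted p under 0.05, and DESeq2 called 3 genes, none of the 10. The directions given below are therefore values and not called changes. CPM, and the folds and ratios given with them, are on total counts. Log2 values and counts of genes 2-fold apart in both pairs used TMM, a scaling by edgeR, unless another is named. In pair 1 the log2 ratio of mam was -2.99 with TMM and -3.38 on total counts, and that of rho was 1.60 and 1.20. The p-values measure only the spread between these libraries, and no source says that numbers 1 and 3 came from separate flies.

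**Figure D2:**
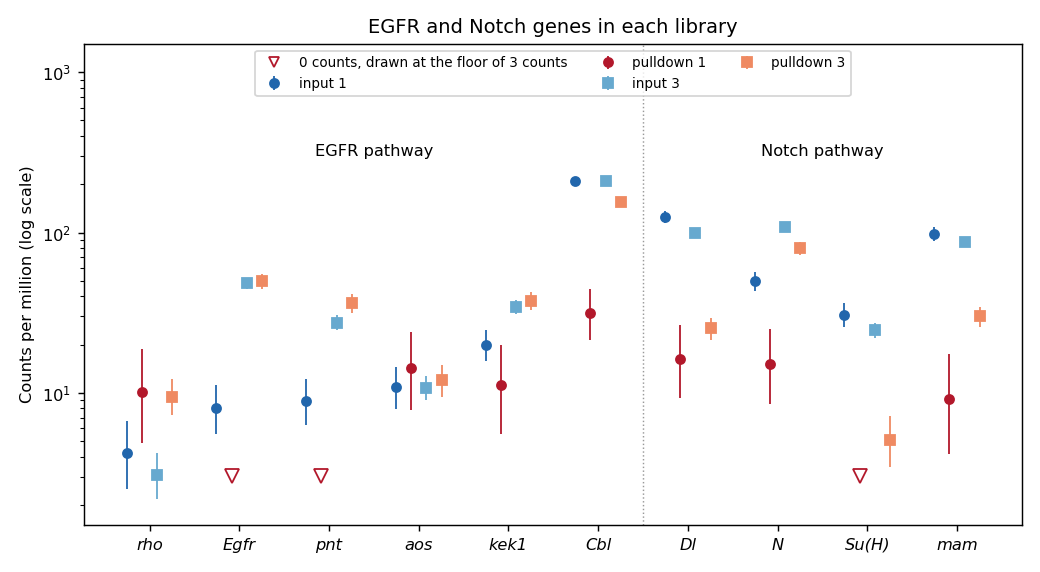
CPM of each gene in each library, on a log axis, with exact 95% binomial intervals. Blue marks inputs and red or orange marks pulldowns, circles are number 1 and squares number 3, and open triangles mark 0 counts, drawn at the floor of 3 counts in pulldown 1. Both pulldowns lie above both inputs for rho and aos, and below them for Cbl, Dl, Su(H) and mam.

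rho (chr3L:1463811-1468944, plus strand) encodes the protease that releases the ligand. It had 4.24 CPM in input 1 against 10.2 in pulldown 1, with 3.07 in input 3 against 9.47 in pulldown 3. Both pulldowns were above both inputs, and the groups did not overlap. The ratio of pulldown to input was 2.39 in pair 1 (95% interval 0.988 to 5.47) and 3.08 in pair 3 (2.02 to 4.73). These ratios rest on 18, 10, 39 and 60 counts in that order of libraries, and the interval of pair 1 reaches 1. Across the libraries the log2 fold change of rho was 1.65 (SE 1.64, adjusted p = 0.9999, edgeR).

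Egfr (chr2R:21522420-21559977, plus strand) encodes the receptor. It had 8.01 CPM in input 1 against 0 in pulldown 1, with 48.1 in input 3 against 49.7 in pulldown 3. Pulldown 1 was thus the lowest and pulldown 3 the highest of the libraries, so the groups overlapped. Against the floor Egfr was at least 2.63-fold lower in pulldown 1 than in input 1, and its ratio in pair 3 was 1.03 (0.899 to 1.19). The log2 fold change was -0.14 (SE 1.70, adjusted p = 0.9999, edgeR). The estimate turned to 0.81 without pulldown 1 and to 1.30 without input 3. Input 1 held 34 Egfr counts, and of the 705 tested genes with 30 to 60 counts there, 258 (36.6%) were at 0 in pulldown 1.

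pnt (chr3R:23290231-23346167, minus strand) encodes the ETS transcription factor that carries the signal to target genes. It had 8.95 CPM in input 1 against 0 in pulldown 1, with 27.4 in input 3 against 36.1 in pulldown 3. The pattern over the libraries was that of Egfr, with the lowest and the highest values in the pulldowns. It was at least 2.94-fold lower in pulldown 1, with 38 counts in input 1, and 1.32 times the input in pair 3 (1.11 to 1.57). The log2 fold change was -0.01 (SE 1.75, adjusted p = 0.9999, edgeR), and it was 0.93 without pulldown 1 and 0.68 without input 3.

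The 3 inhibitors of the receptor differed from each other. aos (chr3L:16470386-16483650, minus strand), for the secreted protein that binds the ligand, had 10.8 CPM in input 1 against 14.2 in pulldown 1, with 10.7 in input 3 against 12.0 in pulldown 3. Its pulldowns were above its inputs by 1.31-fold in pair 1 (0.666 to 2.43) and 1.12-fold in pair 3 (0.833 to 1.49), and both intervals include 1. kek1 (chr2L:12817000-12822787, minus strand), for a transmembrane protein that binds the receptor, had 19.8, 11.2, 34.3 and 37.2 CPM in the same order. Its ratio was 0.564 in pair 1 (0.271 to 1.06) and 1.09 in pair 3 (0.923 to 1.28). These intervals of kek1 also include 1, and the groups overlapped. Cbl (chr3L:8424954-8432246, plus strand), for a ubiquitin ligase that marks the receptor for turnover, had 208.9, 31.5, 210.6 and 154.1 CPM. Its inputs were nearly equal, and both pulldowns were lower, by 6.64-fold in pair 1 and 1.37-fold in pair 3. The log2 fold change was 0.56 for aos (SE 1.4), -0.04 for kek1 (SE 1.09) and -1.16 for Cbl (SE 0.71), each with an adjusted p of 0.9999 in edgeR. For Cbl it was -0.61 without pulldown 1 and -2.15 without pulldown 3.

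Dl (chr3R:19302731-19326217, minus strand) encodes the ligand of Notch and is listed as Delta in the annotation. It had 125.3 CPM in input 1 against 16.2 in pulldown 1, with 98.7 in input 3 against 25.2 in pulldown 3. Both pulldowns were below both inputs, and Dl was lower by 7.71-fold in pair 1 and 3.91-fold in pair 3. The log2 fold change of Dl was -2.28 (SE 0.75, adjusted p = 0.9999, edgeR). It rests on 532, 16, 1252 and 160 counts.

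N (chrX:3134870-3172221, plus strand) encodes the receptor, and its pattern differed from that of its ligand. It had 49.7 CPM in input 1 against 15.2 in pulldown 1, with 108.7 in input 3 against 79.5 in pulldown 3. Each pulldown was below its own input, by 3.26-fold in pair 1 and 1.37-fold in pair 3, but pulldown 3 was above input 1, so the groups overlapped. The log2 fold change was -0.65 (SE 0.84, adjusted p = 0.9999, edgeR). It was -0.08 without pulldown 1, -0.26 without input 3, -0.99 without input 1 and -1.72 without pulldown 3.

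Su(H) (chr2L:15039488-15043334, plus strand) encodes the protein that binds DNA for the Notch complex. It had 30.6 CPM in input 1 against 0 in pulldown 1, with 24.5 in input 3 against 5.05 in pulldown 3. The inputs were close to each other and both pulldowns were lower, at least 10.1-fold in pair 1 and 4.86-fold in pair 3. Unlike Egfr and pnt, Su(H) had 130 counts in input 1, and of the 1325 tested genes with 100 to 200 counts there, 10.3% were at 0 in pulldown 1. The fitted log2 fold change, which depends on how the 0 is treated, was -3.36 (SE 1.67, adjusted p = 0.9999, edgeR), and -2.63 without pulldown 1.

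mam (chr2R:13991203-14060356, plus strand) encodes the coactivator of the same complex. It had 98.0 CPM in input 1 against 9.14 in pulldown 1, with 87.8 in input 3 against 29.98 in pulldown 3. The groups were again apart, with mam lower by 10.7-fold in pair 1 and 2.93-fold in pair 3. The log2 fold change was -2.17 (SE 0.83, adjusted p = 0.9999, edgeR).

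Counted over the 10 genes, 3 (Dl, Su(H) and mam) were at least 2-fold lower in both pairs, which held for 454 of the 7085 tested genes (6.41%). On plain total counts the same 3 genes were 2-fold lower in both pairs, beside 7.81% of tested genes. Of the 10, rho alone was at least 2-fold higher in both pairs, beside 114 tested genes (1.61%), and on total counts beside 0.974%. Both pulldowns were below both inputs in CPM for 4 genes (Cbl, Dl, Su(H) and mam), against 20.0% of tested genes, and above them for 2 (rho and aos), against 6.21%. The groups overlapped for the other 4 genes. An unadjusted p under 0.05 was reached by 2 genes, Dl and mam, both lower, beside 1.93% of tested genes lower and 0.127% higher. The median log2 fold change was -0.02 over the 6 EGFR genes, -2.22 over the 4 Notch genes and -0.07 over all tested genes. With the replicate number as a block these medians were -0.71, -2.20 and -0.24. The difference between the gene groups was not tested.

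**Figure D3:**
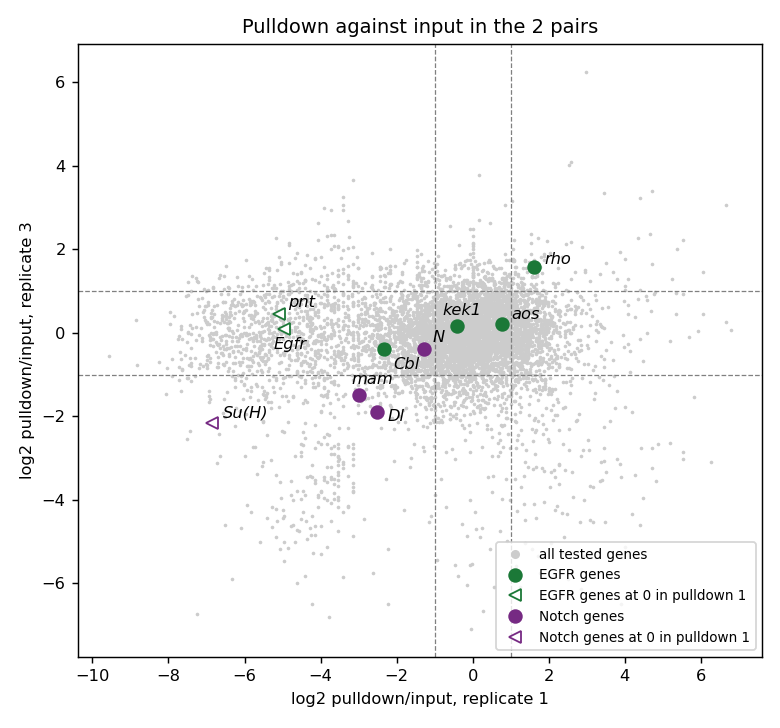
Log2 ratio of pulldown to input in pair 1 (x axis) and pair 3 (y axis), computed with TMM scaling and a prior count of 2, for the 7085 tested genes in grey and the 10 genes in colour. Dashed lines mark 2-fold, and open triangles mark genes at 0 in pulldown 1, whose place on the x axis is set by the prior count. Dl, mam and Su(H) lie in the lower left corner, and rho in the upper right at 1.60 and 1.57.

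Genes that work as partners can be read side by side. Dl and N, ligand and receptor, were 3.91-fold and 1.37-fold lower in pair 3, where depth was greatest. Their exact 95% intervals of the pulldown-to-input ratio in that pair were 0.216 to 0.302 for Dl and 0.659 to 0.811 for N, which are apart. In pair 1 they were 0.0736 to 0.212 for Dl and 0.169 to 0.517 for N, which overlap. Su(H) and mam, partners in one complex, had ratios in pair 3 of 0.206 (0.138 to 0.297) and 0.341 (0.291 to 0.398). rho and Egfr, which act in sequence, had 3.08 (2.02 to 4.73) and 1.03 (0.899 to 1.19) there. These intervals compare single libraries and cover counting error only.

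The genes whose levels over the 4 libraries were most like those of Egfr were Tti1, CG7156 and Art7, at a Euclidean distance in log2 CPM of 0.06, 0.16 and 0.20 among 7084 genes. Tti1 had 8.01 CPM in input 1 against 0 in pulldown 1, with 49.1 in input 3 against 48.0 in pulldown 3, nearly the Egfr values. The genes most like N were C1GalTA, CG33090 and hfp, at 0.19, 0.27 and 0.33. C1GalTA had 45.5, 16.2, 104.1 and 74.5 CPM. The measure takes in level and library together, over 4 libraries.

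The 10 genes were then set among the wider pathways, in lists of 36 EGFR and 36 Notch genes that share fng. These lists were chosen with earlier results of these data known. Of the 71 genes, 68 were listed in the count tables, 64 had a count in some library and 56 were tested, and none was called in either direction. Estimates were below 0 for 46 of the 56, against 53.8% of all tested genes, with a median log2 fold change of -0.64, against -0.07 for all tested genes. At least 2-fold lower in both pairs were 7 genes (12.5%, against 6.41% of tested genes), Dl, Su(H) and mam among them, and 1, rho, was higher. Without the 10 genes 4 of 46 (8.70%) were 2-fold lower in both pairs, namely aop, Gap1, fng and E(spl)m3-HLH. For fng and E(spl)m3-HLH, both at 0 in pulldown 1, the pair 1 difference rests on the prior count. Without the 10 genes the median was -0.59 over 26 EGFR genes and -0.71 over 21 Notch genes, with fng in both. Outside the 10 genes, then, the EGFR and Notch medians lay closer together than among them.

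**Figure D4:**
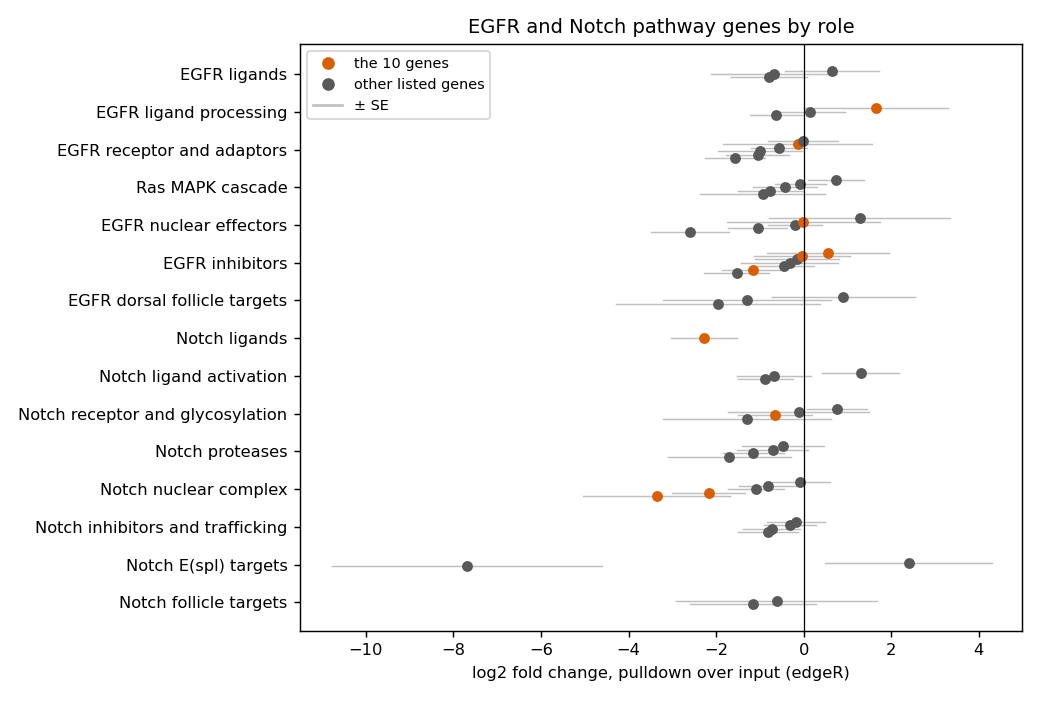
Fitted log2 fold change, pulldown over input, of the 56 tested pathway genes by role, with fng shown under both pathways. Orange points are the 10 genes, grey points the other listed genes, and grey lines 1 SE to each side. Most points lie left of 0, and the point farthest left is E(spl)m3-HLH, listed at 0 in both pulldowns.

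The other EGFR genes at least 2-fold lower in both pairs were aop, Gap1 and fng. aop encodes Yan, an ETS repressor that opposes Pointed, and had 106.2 CPM in input 1 against 5.08 in pulldown 1, with 93.2 in input 3 against 26.8 in pulldown 3. Its log2 fold change was -2.60 (SE 0.89, adjusted p = 0.9999, edgeR). While pnt overlapped between the groups, aop did not, though its value in pulldown 1 rests on 5 counts. Gap1, which turns off Ras, had 132.6, 29.4, 88.5 and 38.8 CPM in the same order, with both pulldowns below both inputs. fng, for a glycosyltransferase that modifies Notch, had 3.77, 0, 19.4 and 8.68 CPM. Against the floor it was 1.24-fold lower in pair 1, so its 2-fold difference in that pair rests on the prior count.

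The EGFR genes highest per kilobase in the inputs were Ras85D, stet, drk, Dsor1 and spi. Ras85D, the Ras GTPase itself, had 200.9, 119.8, 218.1 and 241.2 CPM, with overlapping groups. drk, an adaptor of the receptor, had 205.9, 73.1, 146.6 and 148.8 CPM, also overlapping. Dsor1, the MAP kinase kinase, had 113.8, 151.3, 98.2 and 146.1 CPM, with both pulldowns above both inputs. stet, a rhomboid protease of the germline, had 174.8, 60.9, 179.7 and 153.8 CPM and so lay lower in both pulldowns, unlike rho. spi, a ligand that rhomboids cut, had 149.1, 65.0, 60.2 and 36.3 CPM, and its inputs differed more than pair 3 did.

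Of the Notch nuclear complex, all 5 listed genes (Su(H), mam, H, gro and CtBP) had both pulldowns below both inputs in CPM. This held for 20.0% of tested genes, but for 25 of the 56 tested pathway genes. By list it held for 13 of 25 Notch and 12 of 32 EGFR genes. CtBP, a corepressor, had 566.2, 221.3, 388.7 and 256.2 CPM. gro, the corepressor Groucho, had 292.5, 237.6, 242.3 and 176.5 CPM and a log2 fold change of -0.08. With TMM scaling its log2 ratio in pair 1 was 0.10, so for gro the order of pulldown 1 and input 1 turned with the scaling. The ubiquitin ligases of Notch, Nedd4 and Su(dx), had 336.3, 172.6, 296.3 and 141.2 CPM and 186.3, 87.3, 210.6 and 204.9 CPM in turn. aph-1, a subunit of the gamma-secretase that cuts Notch, had 74.2, 35.5, 31.3 and 30.4 CPM.

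Among the target genes of Notch, those of the E(spl) complex had few counts. Of the 11 listed genes of the E(spl) complex, 4 had a count in input 1 and 6 in input 3, 1 in each pulldown, and 2 passed the filter, which went opposite ways. E(spl)m3-HLH had 10 counts in input 1 and 75 in input 3, and 0 in both pulldowns. In pair 3 it was 12.5-fold lower against the floor, and in pair 1 both libraries lay at or under the floor of pulldown 1. E(spl)mbeta-HLH went from 2 counts (input) to 13 (pulldown) in pair 1 and from 54 to 26 in the deeper pair 3, with a log2 fold change of 2.40 (SE 1.91, adjusted p = 0.9999, edgeR). The follicle cell targets peb and ct, which encode transcription factors, were both tested. For peb, pair 1 had 6.83 CPM in the input and 3.05 in the pulldown, which is 3 counts and so at the floor. Pair 3 had 46.9 and 18.3 CPM. For ct the input and pulldown had 4.95 and 7.11 CPM in pair 1, the latter from 7 counts, and 10.8 and 0 in pair 3. The pairs of ct thus differed in direction. E(spl)mbeta-HLH, peb and ct were added to the named genes after their values were seen.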

How the data were processed

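The labels describe stranded poly(A) libraries of WT ovaries sequenced as single-end reads. Each deposited table holds unnormalised read counts for FlyBase genes, made by the authors with HISAT2 2.1.0 on dm6 and featureCounts 1.4.6. The submitters' notes also name DESeq2 1.24.0. The strand setting of the counting is not given in the sources used here. Group and number came from the sample titles.

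The quasi-likelihood test of edgeR 4.0.16 in R 4.3.3 was run on the counts (TMM, filterByExpr, group as the only term, adjusted over 7085 genes) and, as an alternative, DESeq2 1.42.0. Calls needed an adjusted p below 0.05 and a 2-fold difference. Log2 ratios within pairs used a prior count of 2. Folds against 0 counts used a floor of 3 counts in the library and leave out counting error in the input. Ratio intervals are exact conditional binomial intervals (95%). The fits were tested on simulated counts. Per-kilobase levels used merged exons of the dm6 annotation, which matched 16647 of the 17023 genes by identifier. Coding runs came from RefSeq.

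The 10 genes, the pathway and marker lists and the tests were chosen with earlier results of these data known. Besides the 10, the text names the 5 genes highest per kilobase in the inputs of each list, those at least 2-fold apart in both pairs, and the 3 genes most like Egfr and N. H is named to complete the Notch nuclear complex, a role that this naming rule did not single out. Alternatives were other scalings, filters, a replicate block, a prior count of 0.5, the longest transcript as length, and leaving out libraries. Pairing rests on the numbers in the titles and on the methods, which take the input from the homogenate used for the pulldown. Deviations from the group means correlated at 0.414 between libraries of the same number over 7085 genes. With n = 2 per group the value for crossed numbers is its mirror, -0.414, and so adds nothing. Input 1 and pulldown 1 were also the shallower libraries of their groups, so the correlation cannot show a shared homogenate.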

Additional observations from a re-analysis of the deposited data

How the results depend on the processing

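Over all tested genes, the counts called were 2 higher without a filter, and 2 higher and 1 lower with DESeq2, against 0 in edgeR, where 9 genes were higher and 137 lower at an unadjusted p under 0.05. None of the 10 genes was called in any fit of all 4 libraries. Leaving out 1 library gave 0 to 48 genes called higher and 0 to 431 lower, 0 to 2 of the 10 genes and 0 to 5 pathway genes. The highest counts came without pulldown 3, when the lone pulldown is assumed to vary like the inputs. Egfr (adjusted p = 0.0341) and Su(H) (adjusted p = 0.0290) were then called lower, both with 0 counts in pulldown 1. Without pulldown 1, 2 genes were called higher and 24 lower, none of them among the 10.

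Directions held for rho, Cbl, N, Dl, Su(H) and mam under every setting run, but the sizes moved. On the log2 scale rho ranged from 1.19 to 2.1, Cbl from -2.32 to -0.39, N from -1.72 to -0.08, Dl from -2.61 to -1.89, Su(H) from -10.48 to -2.15 and mam from -2.99 to -1.49. Of 56 values of the 10 genes refitted with all libraries, 5 changed sign, and of 60 with a library or pair left out, 10 did, all in 4 genes with estimates within 0.56 of 0. Egfr was 0.81 without pulldown 1, 1.30 without input 3 and 0.10 in pair 3 alone, and ranged from -10.34 to 1.30. aos was -0.0085 without pulldown 1 and ranged up to 0.99. pnt was 0.11 with upper-quartile scaling, 0.020 with total counts, 0.029 with DESeq2, 0.93 without pulldown 1, 0.68 without input 3 and 0.45 in pair 3 alone, from -9.76 at its lowest. kek1 was 0.050 with upper-quartile scaling, 0.026 with DESeq2, 0.35 without pulldown 1, 0.15 without input 3 and 0.17 in pair 3 alone, from -0.64 at its lowest. The cause was not tested. Total counts moved the median log2 fold change of all genes from -0.07 to -0.23.

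With the replicate block, 0 genes were called, and no call changed. Of the 10 genes, Egfr (-1.36) and pnt (-1.34) had the log2 fold changes that moved most under the block. Depth limits pulldown 1 most, where fewer than 3 counts lie under 3.05 CPM.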
